A study of Mus musculus with 13 samples.

Results

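The cone genes described here are 10 genes that mark cone photoreceptors or act in them, matched by symbol among the 35734 genes of the authors' deposited comparison table. They comprise 3 transcription factors of the cone lineage (Thrb, Rxrg and Sall3) and 7 genes of the cone light response (Opn1sw, Gnat2, Gnb3, Gngt2, Pde6c, Cnga3 and Cngb3). All 10 passed the filter on low counts and were among the 15595 genes tested. Their levels were compared between retinal cells given Ikzf1 and control cells.

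Cones are the photoreceptors of daylight and colour vision. In a cone, light changes the shape of an opsin, the opsin activates the G protein transducin, transducin activates a phosphodiesterase that breaks down cyclic GMP, and a channel held open by cyclic GMP closes. Rods use a related set of proteins, most of them encoded by other genes. Cones are born early in retinal development, before birth in the mouse, and their genes are controlled by factors shared with rods, such as Otx2 and Crx, and by nuclear receptors, among them the thyroid hormone receptor encoded by Thrb. Ikaros, the protein of Ikzf1, is best known as a zinc finger factor of lymphocytes and is also made by early retinal progenitors.

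The libraries came from CD1 mouse retinas of postnatal day 0. Dissociated cells were transfected and kept in culture for 9 h, and the GFP-positive cells were then sorted, per the labels' protocols. The 4 control libraries came from 400000 cells each that carried GFP alone. The cells of the 4 Ikzf1 libraries carried Ikzf1-IRES-GFP, a construct that expresses Ikzf1 and GFP from 1 transcript, and numbered 300000 a library. The promoter that drives these plasmids in the RNA-seq arm was not given in the sources used here. The labels call the 4 libraries of a group biological replicates and do not say which litters or cultures they came from, so the p-values measure the spread between these libraries. The labels give the cell type as retinal progenitor cells. All 12 progenitor markers listed were tested, with a summed level of 2085 to 2206 CPM in the controls (CPM are read counts scaled to a common library size, here with TMM factors), and markers of rods and other neurons were also present.

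Total depth was 21.4 to 27.1 M estimated read pairs in the controls and 24.5 to 30.5 M in the Ikzf1 libraries, and mitochondrial transcripts took 2.43 to 2.95% and 2.18 to 2.51% of the reads. Ikzf1 rose from 74.8 ± 7.74 to 182344 ± 7339 CPM (SD, n = 4 each). On the log2 scale this was 11.25, with a standard error (SE) of 0.09 (edgeR adjusted p 3.04e-34). Its reads, which include those of the plasmid, made up 15.9 to 17.2% of each Ikzf1 library. The edgeR quasi-likelihood test called 59.1% of all tested genes at an adjusted p of 0.05, with 29.3% higher and 29.8% lower. With limma on log2(TPM + 0.1), where TPM is a share of transcripts scaled by their length, 1886 genes were higher and 7021 lower, against 4567 and 4645 with edgeR. A call was therefore common in this comparison.

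RefSeq start-site windows (250 bases before to 50 after the start, build GRCm38.p6) were used for 5 of the 10 genes, 8 windows in all. They are shown for Gnat2 and Rxrg, which fell with Ikzf1, and for Opn1sw and Thrb, which did not pass the test. Capitals mark matches on either strand to 3 motifs, so a match on the other strand appears as the reverse complement. The first is TGGGAA, the core bound by Ikaros proteins. The second, bound by Crx and Otx2, is TAATCC. The third, bound by many nuclear receptors, is AGGTCA.
Gnat2, chr3:108092816-108093115, plus strand: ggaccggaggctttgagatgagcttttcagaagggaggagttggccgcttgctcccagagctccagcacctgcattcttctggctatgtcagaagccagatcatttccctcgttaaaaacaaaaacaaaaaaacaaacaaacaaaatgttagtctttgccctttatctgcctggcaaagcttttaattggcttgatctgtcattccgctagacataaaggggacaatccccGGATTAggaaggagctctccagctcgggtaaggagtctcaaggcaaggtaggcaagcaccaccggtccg
Rxrg, chr1:167598112-167598411, plus strand: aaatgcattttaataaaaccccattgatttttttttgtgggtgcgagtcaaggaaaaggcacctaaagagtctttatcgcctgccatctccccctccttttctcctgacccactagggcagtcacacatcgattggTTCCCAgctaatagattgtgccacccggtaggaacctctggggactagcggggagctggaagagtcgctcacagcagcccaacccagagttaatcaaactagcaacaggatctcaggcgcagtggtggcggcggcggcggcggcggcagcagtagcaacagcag
Opn1sw, chr6:29380464-29380763, minus strand: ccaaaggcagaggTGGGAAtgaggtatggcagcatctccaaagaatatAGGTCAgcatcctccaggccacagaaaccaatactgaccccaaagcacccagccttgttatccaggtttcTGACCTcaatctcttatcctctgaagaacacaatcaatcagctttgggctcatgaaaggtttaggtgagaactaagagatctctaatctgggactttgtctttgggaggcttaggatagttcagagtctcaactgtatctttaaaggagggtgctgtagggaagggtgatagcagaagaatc
Thrb, chr14:17660710-17661009, plus strand: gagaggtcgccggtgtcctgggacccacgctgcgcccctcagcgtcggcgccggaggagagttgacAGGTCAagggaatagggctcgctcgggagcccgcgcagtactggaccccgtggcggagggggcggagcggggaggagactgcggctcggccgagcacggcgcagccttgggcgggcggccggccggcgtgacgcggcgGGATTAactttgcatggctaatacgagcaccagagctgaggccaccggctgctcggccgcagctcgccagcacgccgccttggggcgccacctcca

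The Ikaros core was present in 2 of the 8 windows, those of Rxrg and Opn1sw, and in 25.6% of all 32851 windows of the table. The Crx and Otx2 core was present in 2, those of Gnat2 and Thrb, against 7.06% of all windows. The nuclear receptor core was present in 3, those of Opn1sw and Thrb and a second Rxrg window at chr1:167618015-167618314, against 16.3% of all windows. Gnat2, whose RNA fell, and Thrb, whose RNA did not pass the test, each held 1 Crx and Otx2 core in the window shown. A second Thrb window, at chr14:17981394-17981693, and the windows of Cnga3 held none of the motifs. No window of Sall3, the cone gene that rose, was examined, so these counts do not cover all the cone genes. The matches are of letters and describe no binding.

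Most cone genes were lower in the Ikzf1 libraries, and 1 cone factor was much higher. Of the 10, 6 fell (Rxrg, Gnat2, Gnb3, Gngt2, Pde6c and Cngb3), Sall3 rose, and Thrb, Opn1sw and Cnga3 did not pass the threshold, so 7 were called, where 59.1% of all tested genes were called. The share called is near that background. The share called lower (6 of 10) stands beside 29.8% of all tested genes. Among the 7 genes of the light response, 5 fell and 0 rose, and their median log2 fold change was -0.50, against 0.00 over all tested genes. The called genes of the light response fell by 0.34 to 0.67 on the log2 scale. Of the 10 cone genes, 8 passed an adjusted p of 0.05 in the authors' deposited table, Cnga3 being added, and 7 were lower there, where 41.8% of its genes with an adjusted p passed and 21% were lower. Of 22 transcripts of the cone genes tested singly, 4 passed, where 14.3% of all 46834 tested transcripts did. In bulk RNA, fewer cells of a type and less RNA per cell cannot be told apart.

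**Figure D1:**
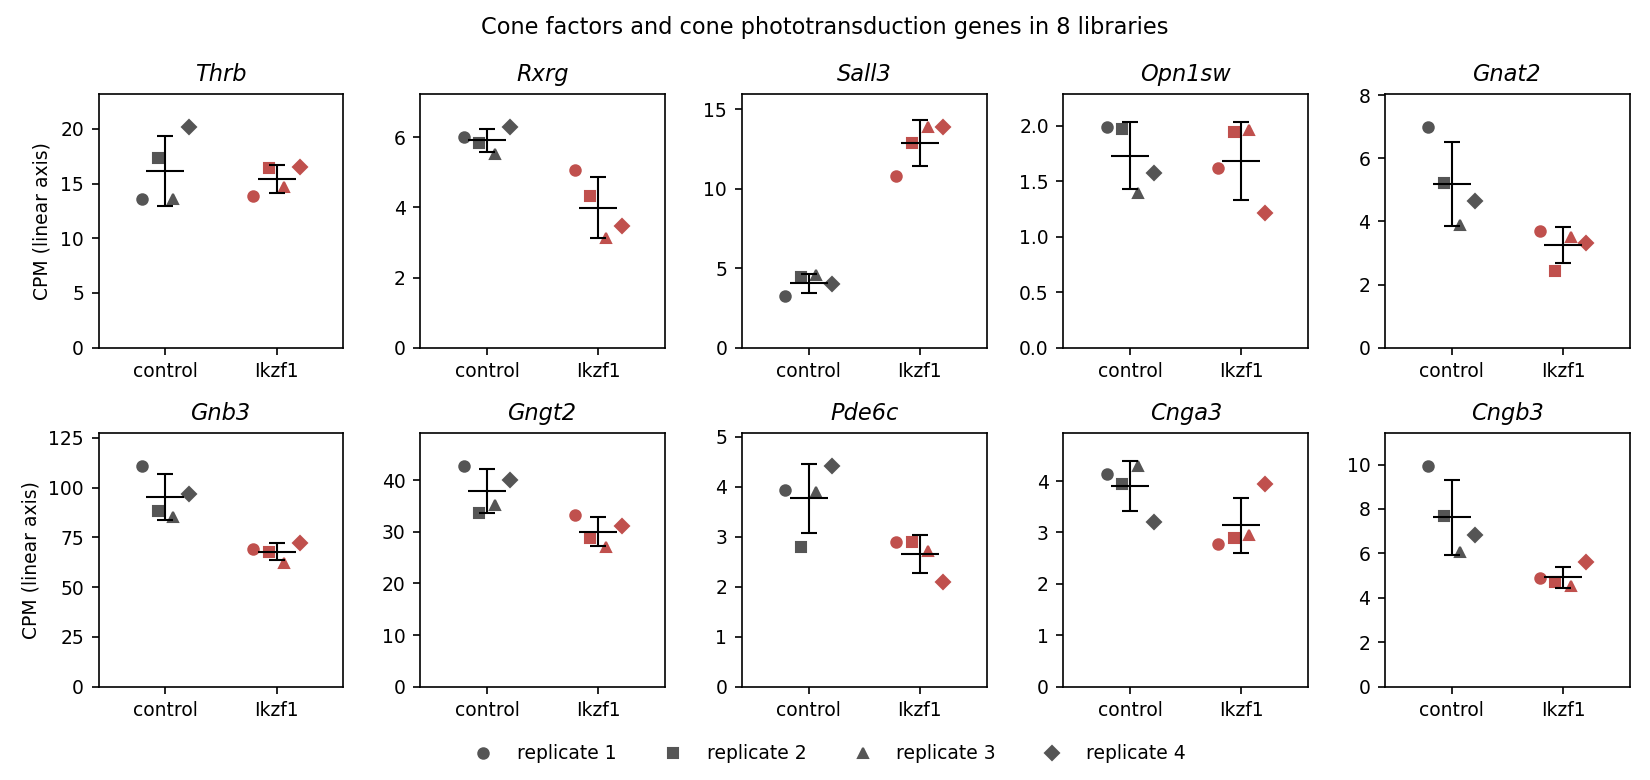
CPM of the 10 cone genes in each library on linear axes that start at 0, with 1 point a library (its shape gives the replicate number) and the mean ± SD of each group. Sall3 is higher in every Ikzf1 library than in every control, and Rxrg, Gnat2, Gnb3, Gngt2 and Cngb3 are lower in every Ikzf1 library, while Thrb, Opn1sw, Pde6c and Cnga3 overlap between the groups.

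The cone factors were examined first. Sall3 encodes a zinc finger factor of the spalt family that takes part in the development of cones and horizontal cells (ENSMUSG00000024565, GRCm38 chromosome 18, 80966376 to 80986771, minus strand). It stood at 3.22, 4.43, 4.56 and 4.00 CPM in control replicates 1 to 4 and at 10.8, 12.9, 13.9 and 13.9 CPM in Ikzf1 replicates 1 to 4. The groups were far apart, and Sall3 was the only cone gene higher in every Ikzf1 library. The mean went from 4.05 ± 0.602 to 12.8 ± 1.47 CPM (SD, n = 4 each), or 3.17-fold (log2 fold change 1.66, SE 0.12, 95% interval 1.41 to 1.92, edgeR adjusted p 2.82e-12). The value depended on the scale: limma on log2(TPM + 1), which compresses low levels, gave 0.97. Of its 3 transcripts, the one of 7079 bases held a mean 71.2% of the TPM of the gene and passed the test over transcripts (log2 fold change 1.64, SE 0.31, edgeR adjusted p 0.00986), while that of 4214 bases did not (1.72, SE 1.34, adjusted p 0.517).

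Rxrg encodes the retinoid X receptor gamma, a nuclear receptor made by cones that pairs with other nuclear receptors (ENSMUSG00000015843, chromosome 1, 167598384 to 167639623, plus strand). Control replicates 1 to 4 had 6.01, 5.83, 5.51 and 6.30 CPM, and Ikzf1 replicates 1 to 4 had 5.06, 4.31, 3.12 and 3.48 CPM. The controls lay close together and every Ikzf1 library lay below them, with a wider spread. The mean went from 5.91 ± 0.332 to 3.99 ± 0.87 CPM (SD, n = 4 each), and the log2 fold change was -0.57 (SE 0.15, 95% interval -0.88 to -0.26, edgeR adjusted p 0.00173). The authors' deposited table gave -0.52 with an adjusted p of 0.0158. Its transcripts of 2110 and 1705 bases, which held a mean 51.2 and 39.4% of its TPM, traded places between libraries (the second ranged from 0 to 54.6% in the controls and from 0 to 65.1% with Ikzf1), and neither passed the test over transcripts (log2 fold change -0.46 and -0.36, edgeR adjusted p 0.376 and 0.927).

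Thrb encodes the thyroid hormone receptor beta, whose isoform TRβ2 is needed for cones of the middle wavelength type (ENSMUSG00000021779, chromosome 14, 17660261 to 18038090, plus strand). Its levels were 13.6, 17.3, 13.6 and 20.2 CPM in the controls and 13.9, 16.4, 14.7 and 16.5 CPM in the Ikzf1 libraries. The controls spread over a wider range than the Ikzf1 libraries, which lay within it. No change was detected: the log2 fold change was -0.07 with a 95% interval of -0.31 to 0.16 (edgeR adjusted p 0.6). Leaving out control replicate 4 turned it to 0.05, an offset for transcript length turned it to 0.16, and the authors' deposited table gave 0.15 (adjusted p 0.576). Transcripts of 6200 and 4532 bases held a mean 43.8 and 28% of its TPM, with log2 fold changes of -0.14 and 0.14 (edgeR adjusted p 0.776 and 0.876). A transcript of 426 bases with a mean 23.2% was below the filter. It had 0 to 13.3 reads in the controls and 6.09 to 10.9 with Ikzf1. The TPM of Thrb and its length offset thus rest in part on few reads. Which transcripts encode TRβ2 was not worked out here.

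The light response begins with the opsin. Opn1sw encodes the short wavelength opsin, the first opsin made by mouse cones (ENSMUSG00000058831, chromosome 6, 29376671 to 29388468, minus strand). It was the gene with the fewest reads, 34 to 50 a library. Its levels were 1.99, 1.97, 1.39 and 1.57 CPM in the controls and 1.62, 1.94, 1.96 and 1.21 CPM in the Ikzf1 libraries, and the groups overlapped almost completely. The log2 fold change was -0.04 (SE 0.24, 95% interval -0.54 to 0.46, edgeR adjusted p 0.899), an interval wide enough to hold the fall measured for Gnb3. The opsin of the middle wavelength, Opn1mw, and cone arrestin, Arr3, were too low to test, with means of 0.255 and 1.9 normalised counts in the authors' deposited table. Opn1sw overlaps Calu on the opposite strand by 440 bases, and Calu had a mean of 6069 normalised counts in that table. The use of strand in counting was not given in the sources used here, so the reads of these genes may not be told apart where they overlap. Its transcripts of 2410 and 1426 bases, with a mean 30.7 and 46.9% of its TPM, had log2 fold changes of -0.10 and 0.17 (edgeR adjusted p 0.941 and 0.947), and one of 743 bases with 22.4% was below the filter.

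Cone transducin is built from the products of Gnat2, Gnb3 and Gngt2, its alpha, beta and gamma subunits, and all 3 genes fell. Gnat2 (ENSMUSG00000009108, chromosome 3, 108092789 to 108101432, plus strand) had 7, 5.21, 3.87 and 4.63 CPM in the controls and 3.70, 2.42, 3.52 and 3.33 CPM with Ikzf1. The groups did not overlap, but control replicate 3 and Ikzf1 replicate 1 were close, and control replicate 1 stood high. Its log2 fold change was -0.67 (SE 0.18, 95% interval -1.03 to -0.30, edgeR adjusted p 0.00207), from 5.18 ± 1.34 to 3.25 ± 0.57 CPM (SD, n = 4 each). Without control replicate 1 it was -0.49 (edgeR adjusted p 0.0203). Its reads were spread over transcripts of 2054, 808 and 1152 bases, which held a mean 25.5, 35.5 and 30.4% of its TPM, and none passed the test over transcripts (log2 fold change -0.08, -1.07 and -1.44, edgeR adjusted p 0.952, 0.212 and 0.576).

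Gnb3, whose product also serves ON bipolar cells (ENSMUSG00000023439, chromosome 6, 124834240 to 124840275, minus strand), was the most deeply sampled of the 10 with 1531 to 2793 reads a library. Its levels were 111, 88.4, 85.4 and 96.8 CPM in the controls and 69.2, 67.4, 62 and 72.1 CPM with Ikzf1. Every Ikzf1 library lay clearly below the lowest control. The fitted level fell by 29.1% (log2 fold change -0.50, SE 0.08, 95% interval -0.66 to -0.33, edgeR adjusted p 4.79e-05), with means of 95.4 ± 11.5 and 67.7 ± 4.28 CPM (SD, n = 4 each). Among its 4 transcripts, those of 1846, 1779 and 582 bases fell, with log2 fold changes of -0.41, -0.72 and -0.99 (edgeR adjusted p 0.0265, 0.0208 and 0.0274 over all transcripts). The transcript of 816 bases did not pass (log2 fold change -0.29, edgeR adjusted p 0.318). The share of the gene's TPM in the 1846-base transcript was 54.4 to 58.5% in the controls and 59.3 to 63.7% with Ikzf1, without overlap. No test was run on this share.

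Gngt2 (ENSMUSG00000038811, chromosome 11, 95837216 to 95845734, plus strand) had 42.8, 33.7, 35.1 and 40.0 CPM in the controls and 33.3, 28.7, 27 and 31.1 CPM with Ikzf1. The groups met at their edges, with control replicate 2 just above Ikzf1 replicate 1. The log2 fold change was -0.34 (SE 0.08, 95% interval -0.49 to -0.18, edgeR adjusted p 0.000521), the smallest of the called falls. Reads of this gene moved between near-equal transcripts from library to library. The transcript of 573 bases held 45.4 to 54.6% of the gene's TPM in the controls and 8.77 to 51.1% with Ikzf1. A transcript of 563 bases, singled out after its values were seen, was listed at 0 in all libraries except Ikzf1 replicates 3 and 4, where it had 38.9 and 49.5 TPM. No single Gngt2 transcript passed the test: that of 558 bases, with a mean 39.8% of the TPM, stood at -0.03 on the log2 scale (edgeR adjusted p 0.942) and that of 573 bases at -1.04 (adjusted p 0.273). The gene overlaps Abi3 on the opposite strand by 5261 bases, and Abi3 had a mean of 72.7 normalised counts in the authors' deposited table.

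Pde6c encodes the catalytic subunit of the cone phosphodiesterase (ENSMUSG00000024992, chromosome 19, 38132781 to 38183958, plus strand). It had 3.94, 2.80, 3.90 and 4.42 CPM in the controls and 2.89, 2.90, 2.72 and 2.09 CPM in the Ikzf1 libraries. Control replicate 2 lay among the Ikzf1 libraries, and the other controls lay above them. The log2 fold change was -0.51 (SE 0.18, 95% interval -0.89 to -0.14, edgeR adjusted p 0.0163). The call was lost without control replicate 4 (-0.43, adjusted p 0.0711) and without Ikzf1 replicate 4 (-0.40, adjusted p 0.0772), both with edgeR. Its transcripts of 2895 and 2586 bases held a mean 57.1 and 42.9% of its TPM and had log2 fold changes of -0.15 and -1.07 (edgeR adjusted p 0.899 and 0.265).

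The channel gated by cyclic GMP is made from the products of Cnga3 and Cngb3. Cngb3 (ENSMUSG00000056494, chromosome 4, 19280850 to 19510623, plus strand) had 9.95, 7.67, 6.05 and 6.82 CPM in the controls and 4.89, 4.71, 4.53 and 5.60 CPM with Ikzf1. The Ikzf1 libraries were close together and all lay below the controls, of which replicate 1 was the highest. Its log2 fold change was -0.62 (SE 0.14, 95% interval -0.91 to -0.33, edgeR adjusted p 0.000428), from 7.62 ± 1.68 to 4.93 ± 0.472 CPM (SD, n = 4 each), and -0.47 without control replicate 1 (edgeR adjusted p 0.00484). The gene was joined to 1 transcript of 4708 bases, which just missed the threshold in the test over transcripts (edgeR adjusted p 0.0552).

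Cnga3 (ENSMUSG00000026114, chromosome 1, 37214434 to 37263384, plus strand) had 4.14, 3.94, 4.30 and 3.20 CPM in the controls and 2.77, 2.90, 2.96 and 3.94 CPM with Ikzf1. Control replicate 4 and Ikzf1 replicate 4 crossed: the first stood near the other Ikzf1 libraries and the second among the controls. The log2 fold change of -0.30 (SE 0.17, 95% interval -0.65 to 0.05) did not pass the test (edgeR adjusted p 0.13). With an offset for average transcript length it was -0.62 and passed (edgeR adjusted p 0.0179, where 50.3% of all genes passed), and the authors' deposited table gave -0.57 (adjusted p 0.0141). The transcript of 3554 bases, which held most of the reads, did not pass (log2 fold change -0.13, edgeR adjusted p 0.743). Its share of the gene's TPM was 52.3 to 70% in the controls and 70.7 to 100% with Ikzf1. A short transcript of 651 bases held 15.5 to 34.6% of the TPM in the controls and 0 to 18.7% with Ikzf1, on 3.3 to 7.03 and 0 to 3.39 reads.

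**Figure D2:**
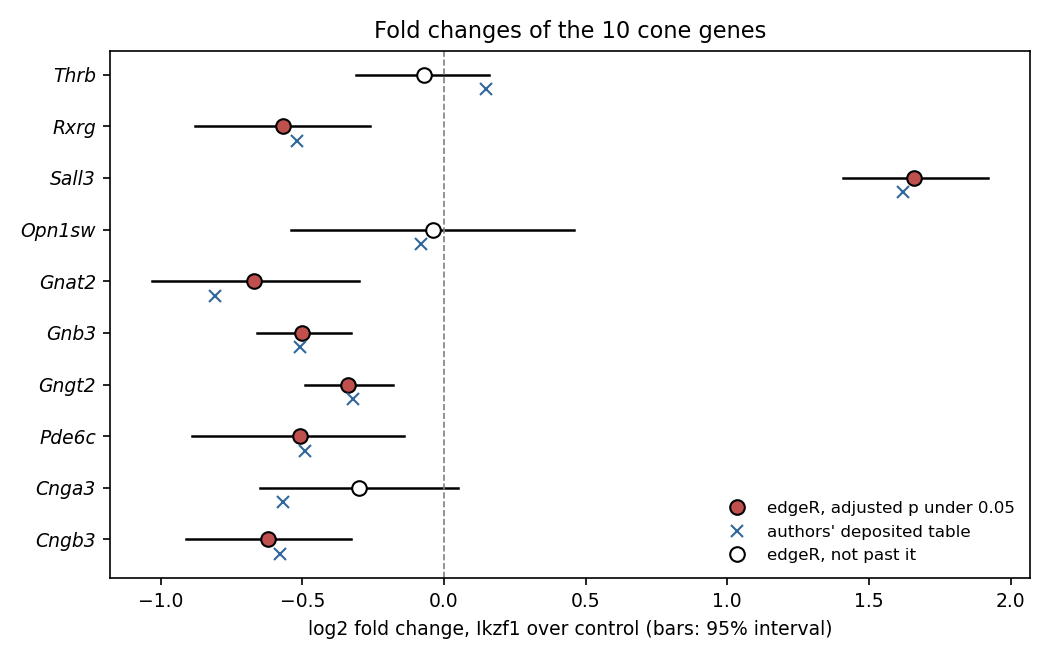
Log2 fold change of Ikzf1 over control for each cone gene with its 95% interval from edgeR (filled points passed an adjusted p of 0.05) and the value of the authors' deposited table (crosses). The 2 sources give opposite signs for Thrb (-0.07 and 0.15), which passed in neither, and Cnga3 passed in the authors' table and not in edgeR.

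Groups did not overlap in CPM for 6 of the 10 genes (Rxrg, Sall3, Gnat2, Gnb3, Gngt2 and Cngb3), where 53.1% of all tested genes showed such a separation. The controls were not alike for these genes. Control replicate 1 had the highest level of 5 of the 10 genes (Opn1sw, Gnat2, Gnb3, Gngt2 and Cngb3), and control replicate 3 had the lowest of 6. The 7 light response genes summed to 140 to 181 CPM in the controls, with the highest sum in replicate 1, and to 105 to 119 CPM in the Ikzf1 libraries. Without control replicate 1, Gnb3 and Gngt2 had log2 fold changes of -0.41 and -0.27 (edgeR adjusted p 2.4e-07 and 0.00264), and all 6 lower genes kept their call.

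Levels of different genes were compared per transcript length, in TPM. The gamma and beta subunits of transducin were by far the most abundant of the 10 in the controls, with 155 to 191 TPM for Gngt2 and 115 to 144 TPM for Gnb3. Gnat2 (7.15 to 11.7 TPM), Thrb (4.86 to 10.6 TPM) and Rxrg (5.81 to 6.86 TPM) came next and overlapped each other. Cngb3, Cnga3, Pde6c and Opn1sw, with means of 3.16, 3.03, 2.75 and 2.34 TPM, also overlapped, and Sall3 was last with 1.11 to 1.42 TPM. In the Ikzf1 libraries Sall3, at 2.94 to 4.03 TPM, stood above every library of Opn1sw, Cngb3, Cnga3 and Pde6c. TPM sums to the same total in each library and Ikzf1 took a mean of 180317 TPM of it, so the TPM of every other gene is lowered in those libraries.

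**Figure D3:**
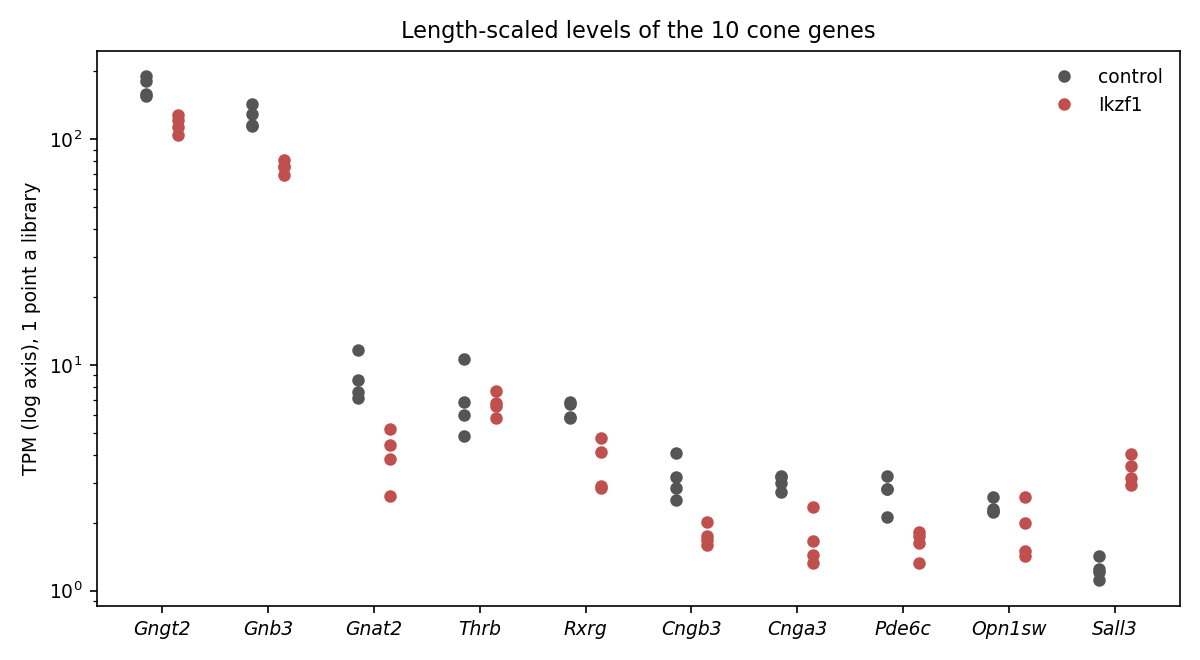
TPM of the 10 cone genes on a log axis, ordered by their mean in the controls, with 1 point a library. Gngt2 and Gnb3 lie at 69.2 TPM or more in every library, and the other 8 lie at 11.7 TPM or less.

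Ratios between subunits are free of that effect. The ratio of Gngt2 to Gnb3 in TPM was 1.33, 1.34, 1.38 and 1.41 in control replicates 1 to 4 and 1.68, 1.51, 1.52 and 1.51 in Ikzf1 replicates 1 to 4. The groups did not overlap, with less of a fall for Gngt2 than for Gnb3, and no test was run on this ratio. Over all tested genes 53.1% separated in CPM, and no such share was worked out for ratios. The 95% intervals of the log2 fold changes overlapped, at -0.49 to -0.18 for Gngt2 and -0.66 to -0.33 for Gnb3. For Gnb3 over Gnat2 the ratio was 12.3 to 16.1 in the controls and 14.6 to 28.6 with Ikzf1, and these ranges overlapped. The ratio of Cngb3 to Cnga3 was 0.842 to 1.26 in the controls and 0.858 to 1.31 with Ikzf1, with almost the same range. This ratio rests in part on few reads. The Cnga3 transcript of 651 bases held 15.5 to 34.6% of its TPM in the controls on 3.3 to 7.03 reads. With Ikzf1 it held 0 to 18.7% on 0 to 3.39 reads. In the edgeR fit on counts, Cngb3 had a log2 fold change of -0.62 and Cnga3 one of -0.30. The beta and gamma subunits of transducin were thus far more abundant as RNA than the alpha subunit in both groups.

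Other genes of phototransduction and of photoreceptor maintenance, many of them shared by cones and rods, were more mixed. Of 25 listed, 23 were tested, 11 fell and 4 rose, where 29.8% of all tested genes fell and 29.3% rose. The share called is near the 59.1% of all tested genes. Their median log2 fold change was -0.37, and their summed level was 523 to 588 CPM in the controls and 432 to 490 CPM with Ikzf1. Aipl1, a chaperone of the phosphodiesterase, fell from 5.81 ± 0.757 to 2.37 ± 0.823 CPM (log2 fold change -1.30, SE 0.19, edgeR adjusted p 1.12e-06). Lower levels were also found for Rgs9, which speeds the shutoff of transducin (-0.86), for phosducin, Pdc, which binds its beta and gamma subunits (-0.76), and for Unc119, which binds its alpha subunit (-0.33). Among the genes that rose were the Rgs9 anchor Rgs9bp (0.76), the opsin kinase Grk1 (0.52) and the cone exchanger Slc24a2 (0.18). Rgs9bp and Rgs9, whose products work as a complex, moved in opposite directions, with 3.42 to 4.86 against 6.53 to 8.13 CPM for Rgs9bp and 10.4 to 13.6 against 5.94 to 7.41 CPM for Rgs9. The rise of Slc24a2 was small (edgeR adjusted p 0.0347) and was lost in 5 of the 8 fits that left out a library and with limma on log2(TPM + 0.1) (0.25, adjusted p 0.0826) and log2(TPM + 1) (0.22, adjusted p 0.078). Grk1 passed in none of the limma fits on TPM, with 0.32 and 0.22 under these pseudocounts (adjusted p 0.275 and 0.267) and 0.59 with TPM rescaled without Ikzf1 (adjusted p 0.0559), a setting chosen after seeing the data.

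Genes of thyroid hormone and retinoid signalling, the pathways of Thrb and Rxrg, changed in both directions. Of 22 listed, 20 were tested, 12 fell and 6 rose, with a median log2 fold change of -0.24. Over all tested genes 29.8% fell and 29.3% rose. Transporters of thyroid hormone diverged: Slc16a10 rose from 5.85 ± 0.534 to 26 ± 2.19 CPM (log2 fold change 2.16, SE 0.09, edgeR adjusted p 1.68e-17), and Slco1c1 fell from 2.47 ± 0.277 to 0.48 ± 0.249 CPM (-2.37). All 4 libraries of each group lay apart for both genes. Hr, a corepressor of thyroid hormone receptors, rose (0.98), as did the orphan receptors Nr2f1 (0.62) and Nr2f2 (0.40), which take part in the patterning of cone opsins. Nr2f2 did not pass with limma on log2(TPM + 0.1) (0.32, adjusted p 0.0698) or log2(TPM + 1) (0.31, adjusted p 0.0721). The retinoic acid receptor Rarb (-1.34) and the coactivator Med1 (-0.37) fell.

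Among factors of photoreceptor fate, 16 of 22 fell and 1 rose, where 29.8% of all tested genes fell and 29.3% rose. Their median log2 fold change was -0.41. Their summed level was 2464 to 2724 CPM in the controls and 1723 to 1941 CPM with Ikzf1, and control replicate 1 again had the highest sum. Crx, the homeodomain factor that activates genes of both photoreceptors, fell from 267 ± 17.8 to 129 ± 10.9 CPM (SD, n = 4 each), with 253 to 289 CPM in the controls and 119 to 139 CPM with Ikzf1. Its log2 fold change was -1.05 (SE 0.06, edgeR adjusted p 5.93e-13), larger than that of any cone gene that fell. Prdm1, which favours photoreceptor over bipolar fate (-1.23), Atoh7, a factor of early neurogenesis (-1.15), and Casz1, a factor of late retinal fates (-0.87), also fell. Onecut3, related to factors of cone and horizontal precursors, was the one that rose, at a low level of 0.358 to 0.627 against 0.681 to 1.32 CPM (log2 fold change 1.08, SE 0.35, edgeR adjusted p 0.00956), and it did not pass the test with limma on log2(TPM + 0.1) (0.58, adjusted p 0.102) or log2(TPM + 1) (0.17, adjusted p 0.122).

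**Figure D4:**
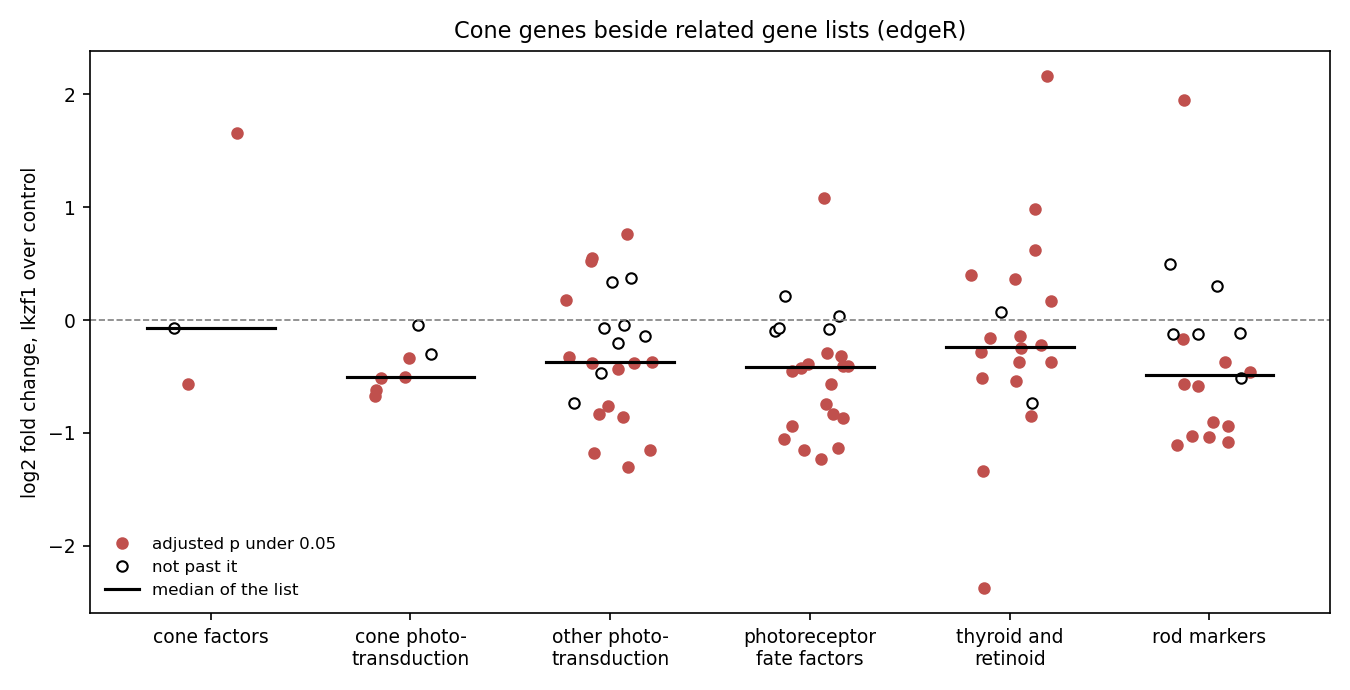
Log2 fold change (Ikzf1 over control, edgeR) of each tested gene in the cone lists and related lists, with filled points past an adjusted p of 0.05 and a bar at the median of the list. The medians of the light response genes (-0.50), other phototransduction genes (-0.37), photoreceptor fate factors (-0.41) and rod markers (-0.49) lie below 0.

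Rod markers moved beside the cone genes, in a comparison where 29.8% of all tested genes fell and 29.3% rose. Of 19 listed rod markers, 18 were tested, 11 fell and 1 rose, with a median log2 fold change of -0.49. Their summed level was 745 to 808 CPM in the controls and 651 to 688 CPM with Ikzf1. Gnb1 made up most of this sum, with 557 to 601 CPM in the controls and 509 to 533 CPM with Ikzf1. Prph2, a disc protein of rods and cones, fell (-1.08), while Gngt1, the gamma subunit of rod transducin, rose from 3.69 ± 0.485 to 14.3 ± 2.1 CPM (log2 fold change 1.95, SE 0.13, edgeR adjusted p 1.52e-13). The rod and cone gamma subunits thus changed in opposite directions, Gngt1 upward and Gngt2 downward.

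Markers of other cells moved as well, beside the 29.8% of all tested genes that fell and the 29.3% that rose. Among progenitor markers 6 of 12 fell and 3 rose (summed level 2085 to 2206 against 1953 to 2001 CPM). Ccnd1 was among the falls (-0.94), and the 3 that rose were Pax6 (0.32), Top2a (0.28) and Mki67 (0.13). Among ganglion cell markers 4 of 8 tested fell and 4 rose (495 to 517 against 261 to 278 CPM). The neurofilament genes Nefl (-2.64) and Nefm (-1.26) fell, and they made up most of the sum in the controls. The 4 that rose were Sncg (3.01), Pou4f1 (2.04), Rbpms (1.33) and Isl1 (0.39), so the lower sum does not describe the list as a whole. Of the amacrine and horizontal cell markers, 6 of 8 tested fell and 0 rose (394 to 459 against 364 to 393 CPM), including Gad1 (-1.59) and Prox1 (-0.38). Of 3 bipolar markers tested, 2 fell, Cabp5 (-0.76) and Prdm8 (-0.87), with 27.1 to 35.5 against 15.7 to 18.9 CPM. Müller glia markers had 1 higher of 5, Slc1a3 (0.31), and 2 lower, Clu being the stronger by p (-0.36), with overlapping sums of 470 to 516 and 507 to 554 CPM.

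Other lists were smaller, and their counts stand beside the 59.1% of all tested genes that were called. The vascular list had 1 lower of 4 tested, Kdr (-1.02), which makes up most of its sum of 404 to 475 against 207 to 248 CPM. Kdr itself had 399 to 469 against 203 to 242 CPM. The other 3 tested were not called, so the lower sum does not describe the list as a whole. For pigment epithelium 1 of 3 fell, Mitf (-1.39), at sums of 8.4 to 9.92 against 3.88 to 5.63 CPM, and for astrocytes 1 of 2, Pax2 (-1.20), at 2.89 to 3.68 against 1.53 to 2.04 CPM. Microglia markers had 0 of 2 called, at 2.02 to 3.07 and 1.16 to 2.82 CPM with 5 more below the filter, and all 4 erythrocyte and all 3 lens markers were below it. Of 6 genes of the response to dissociation, 3 fell and 1 rose, among the falls Fos (-1.98) and Egr1 (-0.45), with 809 to 837 against 583 to 643 CPM. The part of these markers in the values of the cone genes was not tested.

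The signs of the called cone genes held across the processing. With DESeq2 7 of the 10 were called, where 54.6% of all its genes were. Over 17 other settings, which included 8 fits without 1 library each, Sall3 stayed between 0.97 and 1.74, Rxrg between -0.80 and -0.46, Gnat2 between -1.11 and -0.49, Gnb3 between -0.74 and -0.41, Gngt2 between -0.55 and -0.26 and Cngb3 between -0.79 and -0.47 on the log2 scale, and these 6 passed in all 17. Pde6c lay between -0.71 and -0.40 and passed in 14. Cnga3 lay between -0.83 and -0.25 and passed in 4.

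**Figure D5:**
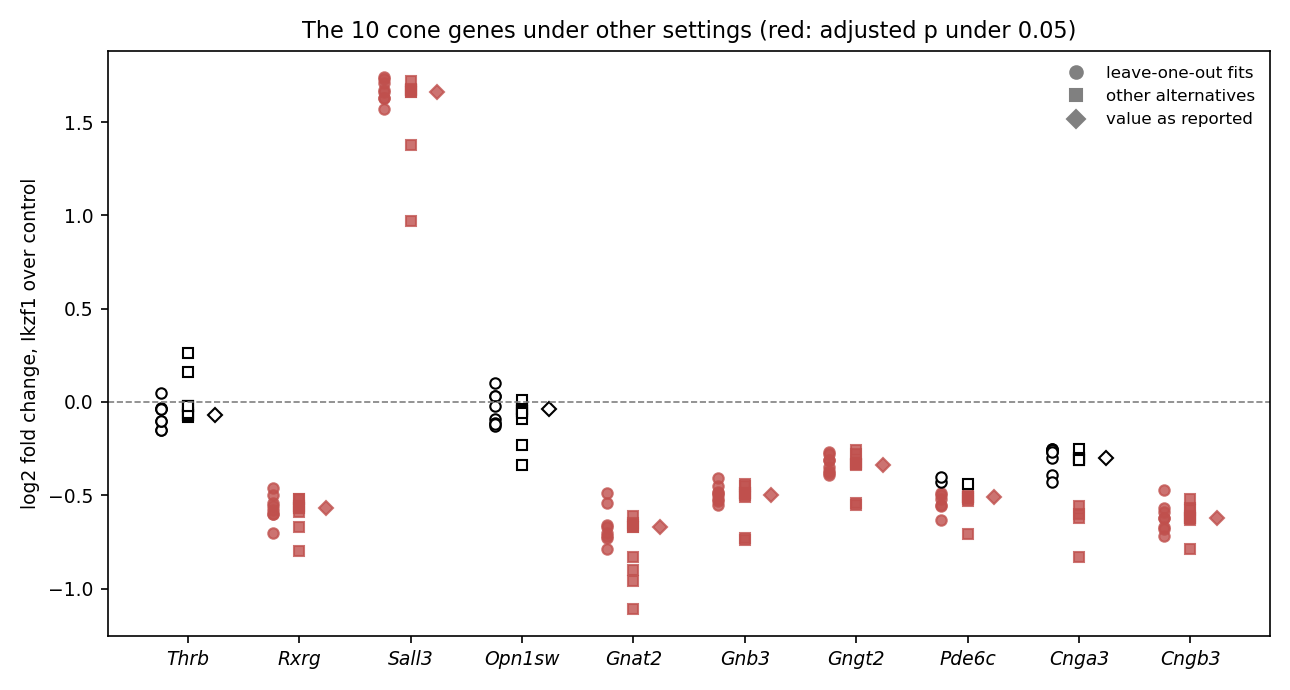
Log2 fold change of each cone gene (Ikzf1 over control) as reported and under 17 other settings, with filled points past an adjusted p of 0.05, circles for fits without 1 library, squares for other alternatives and a diamond for the reported value. Thrb and Opn1sw lie on both sides of 0 and pass nowhere, and Cnga3 passes in 4 of the 17.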

How the data were processed

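The 8 RNA-seq libraries were grouped by their titles. The authors deposited expected counts of read pairs per transcript made with Salmon, and the same files hold TPM and effective lengths, per the file headers. The authors' deposited table gives the mean signal of each gene as normalised counts, log2 fold changes, their standard errors, Wald scores and p-values raw and Benjamini-Hochberg adjusted, from DESeq2 per the labels. Versions, the Salmon index, the annotation release and the strand setting are not given in the sources used here. The submitters' processing notes name mm9 and mm10. Gene positions in the table are those of GRCm38 as far as the RefSeq table shows. The CUT&RUN peak lists were not used here, because gene positions on their build were not used.

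The transcript files name no genes. Transcripts were joined to genes by finding the run of up to 60 neighbouring transcripts whose expected counts give the authors' mean of that gene to a relative 5e-09, without use of the fold changes. This joined 16746 (99.6%) of the 16815 genes whose mean reached 5, and 70 genes (0.416%) found a run after their means were moved. Counts were summed per gene, rounded, filtered with filterByExpr, scaled by TMM and compared with the quasi-likelihood test of edgeR 4.0.16 (robust, two-sided, no covariate), with adjustment over 15595 genes and a threshold of 0.05. Standard errors came from the fold change and its F value. CPM use TMM-scaled library sizes. On counts simulated from the levels and dispersions of these libraries (15485 genes tested, 197 changed), 5.2% of 173 calls were false. Of genes changed by 0.5, 1 and 2 on the log2 scale, 68.8, 88.6 and 98% were recovered. Far fewer genes changed there than the 59.1% called in the data, so these rates may not hold for the data. Alternatives used DESeq2 1.42.0, limma 3.58.1 and other filters and scalings.

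The members and lists were chosen with earlier results of these data known. Named were the 10 cone genes, Ikzf1, up to 4 genes of smallest p in each direction for 3 pathway lists, up to 2 for each marker list, and transcripts with at least 10% of the TPM of a cone gene. The ganglion cell and progenitor markers that rose, and Gnb1, were named in addition to this rule. A few genes that this rule names are not reported here.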

Additional observations from a re-analysis of the deposited data

Results flagged for a closer look

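Cnga3 in Ikzf1 replicate 4 stood at 3.94 CPM, while the other 3 Ikzf1 libraries lay between 2.77 and 2.96 CPM. The gap took 0.831 of the range of the group, just above Dixon's 95% critical value for 4 libraries. This was 1 of 20 groups examined (10 genes in 2 groups), and chance alone gives about 1 in 20.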

How the results depend on the processing

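With limma on log2(TPM + 0.1) and on log2(TPM + 1), 1886 and 1887 genes were higher and 7021 and 7020 lower, and the median of all genes shifted by -0.22 and -0.17 on the log2 scale. On both TPM scales 2 other phototransduction genes and 3 thyroid and retinoid genes were higher, and 0 photoreceptor fate factors were higher, as with a filter of 1 CPM in 4 libraries, under which Onecut3 was not tested. Thrb turned to 0.16 with the length offset, to 0.05 without control replicate 4 (range without 1 library -0.15 to 0.05) and to 0.26 with TPM rescaled without Ikzf1, a setting chosen after seeing the data. Opn1sw turned to 0.01 with library totals without Ikzf1, to 0.03 without control replicate 1 or 2 and to 0.10 without Ikzf1 replicate 4 (range without 1 library -0.13 to 0.10). Pde6c did not pass with rescaled TPM (-0.44, limma adjusted p 0.0691). Cnga3 passed there (-0.56), with limma on log2(TPM + 0.1) (-0.83) and on log2(TPM + 1) (-0.60). With a replicate block, edgeR called 8893 genes and 7 cone genes, and no call of a cone gene changed. The labels do not say whether the numbers pair the samples. Deviations of samples that share a number had correlations of 0.005, -0.028, -0.019 and -0.051. These values show no shared deviation, and they cannot tell whether such samples came from 1 litter or culture. Depth limits Opn1sw, with 34 to 50 reads a library, and single transcripts of low genes. Without a filter, 3 transcripts of cone genes were called in place of 4.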
